A study of Arabidopsis thaliana with 36 samples.

Results

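The genes described here are 100 of 32678 Arabidopsis thaliana loci counted, chosen because their transcripts were higher in slr-1 roots after 24 h of auxin than in untreated slr-1 roots, with no such difference in CASP1::shy2-2/slr-1 roots. They were chosen by group levels, L = log2(mean CPM of the 3 libraries + 1), where CPM is reads per 1000000 reads counted in genes. A locus was kept where L at 24 h exceeded that of the control by at least 1.5 in slr-1 and by at most 0.25 in CASP1::shy2-2/slr-1. These differences at 24 h are therefore a description of the choice and were not tested. Of 355 loci that met the slr-1 condition, 100 are the members and 92 differed by 1.5 or more in both genotypes; in the remaining loci the CASP1::shy2-2/slr-1 difference lay between 0.25 and 1.5.

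Root sections of 7-day-old Col-0 seedlings without root tip and shoot were sequenced, 3 libraries in each of 12 groups. CASP1::shy2-2/slr-1 seedlings and slr-1 seedlings were each harvested untreated and after 2, 4, 8, 16 and 24 h on medium containing 10 µM NAA (1-naphthaleneacetic acid), a synthetic auxin. No untreated group was matched to the single times, so effects of NAA cannot be told apart from those of elapsed time or handling. All seedlings carried slr-1, a stabilised form of the repressor IAA14, so no group has the wild-type IAA14 alone. To this CASP1::shy2-2/slr-1 adds a stabilised IAA3 (SHY2) under the CASP1 promoter, which is active in differentiated endodermal cells; how many transgenic lines were used is not stated in the labels.

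Auxin acts in the nucleus by removing Aux/IAA proteins, which otherwise hold back auxin response factors on their target genes. The slr-1 form of IAA14 resists removal, and slr-1 plants form no lateral roots; the shy2-2 form of IAA3 likewise resists removal and represses auxin response in the cells that make it. The endodermis is the barrier layer around the vascular cylinder, and its auxin response is known to be needed for a lateral root to grow through it.

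Libraries held 28.1 to 49.0 M reads in genes (median 39.3 M). All 100 members passed the filter on low counts (20939 loci passed), and 99 of them passed it on the 2 to 16 h libraries alone, without the slr-1 libraries at 24 h in which they are high. On CASP1::shy2-2/slr-1 libraries alone 73 passed. The slr-1 control replicate 3 stood apart from replicates 1 and 2, and without it the same rule kept 118 loci, 95 of them among the 100. The CASP1::shy2-2/slr-1 control replicate 2 also stood apart from the others of its group. Without it the rule kept 106 loci, 97 of them among the 100. Transcripts of IAA3 had 39.3 to 53.8 CPM in CASP1::shy2-2/slr-1 controls and 37.6 to 41.3 CPM in slr-1 controls, and 22.3 to 25.2 CPM in CASP1::shy2-2/slr-1 and 82.2 to 88.5 CPM in slr-1 at 16 h. These counts do not separate the transgene from the resident gene, so they do not check the label.

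**Figure D1:**
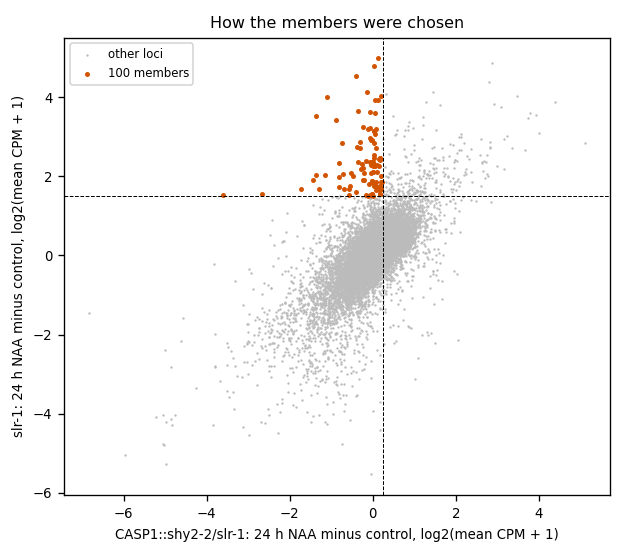
Each point is a locus; the x axis gives the CASP1::shy2-2/slr-1 difference and the y axis the slr-1 difference between 24 h of NAA and control, both in log2(mean CPM + 1). The 100 members (orange) lie above 1.5 on the y axis and at or left of 0.25 on the x axis (dashed lines), with most of them near 0 on the x axis.

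At the edges of the rule, AT4G17670 (1.5011) and AT4G28150 (1.51) lay just inside the slr-1 minimum, and AT5G19890 (1.4963) and AT1G11740 (1.49) just outside it. On the other side, AT5G65205 (0.22) and AT4G14380 (0.21) lay just inside the CASP1::shy2-2/slr-1 maximum, and BGLU24 (0.2505) and FAO3 (0.27) just outside. Every slr-1 24 h library exceeded every slr-1 control library in all 100 members, and 80 members met the slr-1 minimum in each slr-1 24 h library on its own. These are the libraries that the rule used, so both counts describe the choice and lend it no separate support.

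The upstream sequences of 3 members are shown because these genes were among those with the smallest p between the genotypes at 16 h and have no other annotated gene in this window. Each is the 250 bases before the annotated gene start, 5′ to 3′ on the strand of the gene, from RefSeq's TAIR10.1 assembly. They lie at chr1:3029550-3029799 (minus strand, UMAMIT25), chr2:17213180-17213429 (minus strand, SSL2) and chr1:2820479-2820728 (minus strand, MYB60). Capitals mark a match to TATATAA (known as a TATA box) in UMAMIT25 and SSL2, and to TTGACT (a W-box form) in MYB60. ENODL16 and AT2G36670 met the same criteria and are not shown. None of the motifs searched below was found in ENODL16, and TATATAA was found in AT2G36670.
UMAMIT25: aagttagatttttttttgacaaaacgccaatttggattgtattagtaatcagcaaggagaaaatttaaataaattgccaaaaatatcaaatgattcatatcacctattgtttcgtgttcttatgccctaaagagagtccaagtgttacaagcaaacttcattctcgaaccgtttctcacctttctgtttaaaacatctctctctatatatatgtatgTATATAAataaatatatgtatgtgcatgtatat
SSL2: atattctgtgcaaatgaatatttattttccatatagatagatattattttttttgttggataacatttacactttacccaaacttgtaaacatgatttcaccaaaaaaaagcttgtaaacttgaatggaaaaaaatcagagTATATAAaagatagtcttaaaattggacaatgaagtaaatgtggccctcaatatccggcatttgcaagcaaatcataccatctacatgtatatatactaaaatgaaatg
MYB60: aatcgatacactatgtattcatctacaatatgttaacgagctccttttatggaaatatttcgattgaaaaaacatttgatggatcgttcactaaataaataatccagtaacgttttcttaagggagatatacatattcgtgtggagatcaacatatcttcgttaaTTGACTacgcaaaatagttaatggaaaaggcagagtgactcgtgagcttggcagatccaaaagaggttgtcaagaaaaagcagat

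In the 250 bases of all 100 members, the auxin response elements TGTCTC and TGTCGG, searched on both strands, were no more frequent than elsewhere. TGTCTC was found in 10.0% of member sequences and in 10.8% of the same window of all 31899 annotated genes, and TGTCGG in 2.0% and 4.16%. TATATAA was found in 26.0% of members and 19.5% of all, and TTGACT in 25% and 19%. CACGTG (G-box) was found in 7.0% and 5.91%, TTGACC in 11% and 11.8%, AAAATATCT (evening element) in 4.0% and 2.22%, and GCCGCC in none of the members and 1.98% of all. These are letter matches in a short window and say nothing of which factors bind there.

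Among the libraries that did not enter the rule, those at 16 h show the difference most widely. Of the 100 members, 75 were lower in CASP1::shy2-2/slr-1 at 16 h, set against slr-1, and none was higher (edgeR's quasi-likelihood test, adjusted p under 0.05 over all 20939 genes tested). Among all genes tested 5.08% were lower and 3.58% higher. At an unadjusted p under 0.05, 80 members were lower and 1 was higher, and DESeq2 called 78 lower and none higher. The 3 CASP1::shy2-2/slr-1 libraries all lay below the 3 slr-1 libraries in 81 members, against 10.9% of the genes tested. The median difference in L was -1.45 over the members and -0.01 over all genes tested. Replicate 3 of each genotype at 16 h stood apart from replicates 1 and 2, and with both left out 72 members were lower and none higher. Nothing in the labels says that replicates came from separate cultures, so these p-values measure the spread between libraries. In root sections, fewer cells that express a gene and less RNA per cell cannot be told apart.

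Some members already differed at the earliest time with NAA. These comparisons do not subtract the difference between the untreated groups. That difference in L had a median of -0.11 over the members (quartiles -0.41 and 0.37), in libraries that the rule used. At 2 h, 49 members were lower and 10 higher in CASP1::shy2-2/slr-1 (9.22% and 9.05% of all genes tested). Replicate 2 of CASP1::shy2-2/slr-1 stood apart from the others of its group at 2 h, and without it 52 members were lower and 10 higher. At 4 h the counts were 53 lower and 6 higher (8.84% and 7.18%), and at 8 h 63 lower and 4 higher (8.08% and 6.58%). Library codes ending in n, a mark of unstated meaning, fell unevenly on the genotypes at 4 and 8 h. With ending n as a term and the library ending in x left out, 54 were lower and 5 higher at 4 h. At 8 h that fit gave 63 lower and 5 higher. Median differences in L over the members were -0.36, -0.45 and -0.68 at 2, 4 and 8 h, and 45 members were lower at all of 2, 4, 8 and 16 h (1.42% of all genes tested). Another 11 members were lower at 16 h and at none of the earlier times (1.87% of all genes tested).

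**Figure D2:**
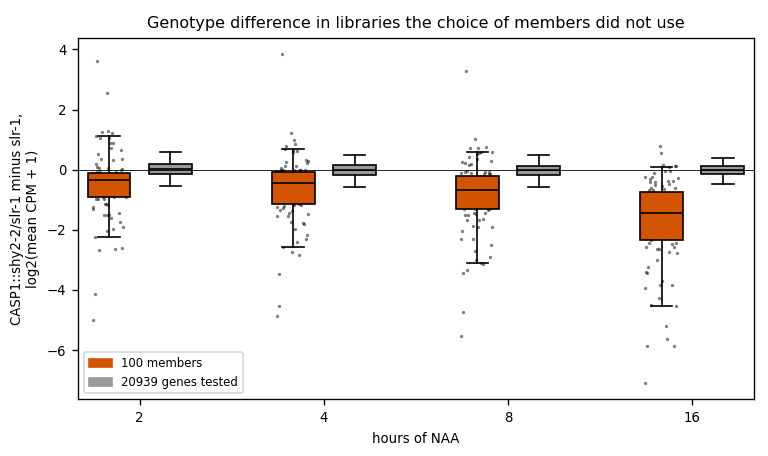
Boxes give the genotype difference (CASP1::shy2-2/slr-1 minus slr-1) in log2(mean CPM + 1) at each time for the 100 members (orange, with 1 point per member) and for the 20939 genes tested (grey); lines in boxes are medians, boxes span the quartiles and whiskers the 5th to 95th percentiles. The member median is -0.36 at 2 h and -1.45 at 16 h, while the median of all genes tested stays within 0.03 of 0.

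Time in auxin was compared within each genotype between 16 h and 2 h, libraries that the rule did not use. All 2 h library codes end in n or x, while at 16 h only that of replicate 3 in each genotype does. The meaning of these endings is not given, so time and library code are partly confounded. With ending n as a term and the x library left out, 74 members rose and 6 fell in slr-1, and 24 fell and 9 rose in CASP1::shy2-2/slr-1. In CASP1::shy2-2/slr-1, 26 members fell and 11 rose between 2 and 16 h (26.2% and 27.3% of all genes tested). In slr-1, 75 members rose and 5 fell (27.2% and 23.7%). The change between 2 and 16 h differed between the genotypes, more negative in CASP1::shy2-2/slr-1, for 43 members and more positive there for none (interaction, 2.41% and 2.63% of all genes tested). At an unadjusted p under 0.05 that interaction took 62 members lower and none higher, and DESeq2 called 49 lower and none higher. In 16 members the directions were opposite, with a fall in CASP1::shy2-2/slr-1 and a rise in slr-1 (0.334% of all genes tested). The 11 members that rose in both genotypes compare with 19.5% of all genes tested.

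The time at which slr-1 first exceeded its control varied between members. Taking the first time at which L in slr-1 was at least 1 above its control, 18 members reached it at 2 h, 10 at 4 h, 7 at 8 h, 45 at 16 h and 20 at 24 h. Thus 28 of the 100 were up by that measure within 4 h, and the word late fits their choice at 24 h rather than their start. In CASP1::shy2-2/slr-1, 9 members were 1 or more below their control at 24 h, 7 had been 1 or more above it at an earlier time (AT1G30760 was both), and 85 were neither. All of these classes share controls with the rule and are a description.

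**Figure D3:**
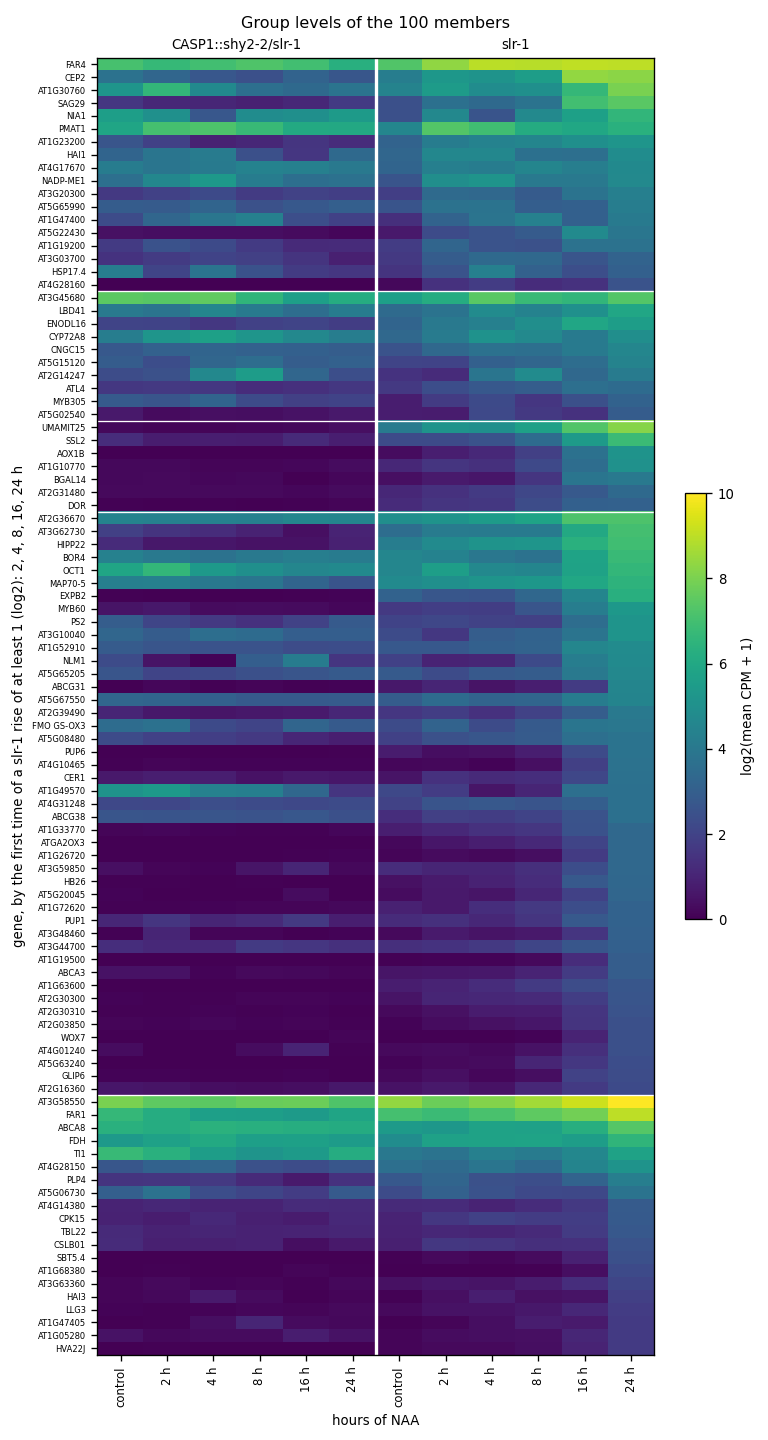
Rows are the 100 members and columns the 12 groups, CASP1::shy2-2/slr-1 on the left and slr-1 on the right, each with the control at its left; colour gives log2(mean CPM + 1). White lines separate members by the first time (2, 4, 8, 16 or 24 h) at which slr-1 was at least 1 above its control, in blocks of 18, 10, 7, 45 and 20 rows. Many rows are near 0 throughout CASP1::shy2-2/slr-1.

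Nearly absent transcripts made up a large share of the module. In 39 members the mean was under 1 CPM in all 6 CASP1::shy2-2/slr-1 groups, a class set after its values were seen, and 9.1% of the genes tested met it. The 1 added in L damps changes at such levels. Such loci therefore meet the CASP1::shy2-2/slr-1 condition more easily, and the rule itself favours this class. The slr-1 means of these 39 at 16 h ranged to 156 CPM with a median of 2.54 CPM. The class rests on the CASP1::shy2-2/slr-1 levels at every time, so calls between the genotypes within it are not independent of its choice. The counts of lower members given above include this class. Of the 75 members lower at 16 h, 35 were in it and 40 were among the other 61 members. Of the 49 lower at 2 h, 28 were in it and 21 were not. The p-values given below for single genes of the class carry the same limit.

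UMAMIT25 (AT1G09380), a member of the UMAMIT family of amino acid exporters, was the clearest of them. At 16 h it had 0.151, 0.113 and 0.203 CPM in CASP1::shy2-2/slr-1 and 149, 169 and 151 CPM in slr-1. Its control libraries held 0.0825 to 0.226 CPM in CASP1::shy2-2/slr-1 and 15.4 to 17.9 CPM in slr-1, so the genotypes did not overlap even before auxin. The log2 difference was -9.96 ± 0.31 (SE) at 16 h (adjusted p = 9.04e-19, edgeR) and -8.29 ± 0.33 at 2 h (adjusted p = 3.64e-16). UMAMIT25 rose in slr-1 between 2 and 16 h by 2.07 ± 0.19 on the log2 scale (adjusted p = 2.06e-09).

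The gene EXPB2, a beta-expansin of the wall-loosening family, was also nearly unread in CASP1::shy2-2/slr-1. Its control libraries held 0.0754, 0.0 and 0.0508 CPM in CASP1::shy2-2/slr-1 and 9.22, 7.92 and 6.7 CPM in slr-1, so the genotypes already differed without auxin. In slr-1 it was below its control at 2 and 4 h, with L changes of -0.47 and -0.57, whereas UMAMIT25 was above its control by 0.98 and 0.84. Its level at 24 h was 0.0, 0.0 and 0.185 CPM in CASP1::shy2-2/slr-1 and 89.0, 78.3 and 68.2 CPM in slr-1. At 16 h it had 3 reads over the CASP1::shy2-2/slr-1 libraries and 2658 over the slr-1 libraries, a ratio of slr-1 to CASP1::shy2-2/slr-1 of 873 with an exact 95% interval of 298 to 4230 that covers counting error only. The test gave an adjusted p of 2.53e-13.

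HIPP22, a heavy-metal-associated protein, was low in one genotype and moderate in the other at every time. It had 0.328, 0.431 and 0.435 CPM in CASP1::shy2-2/slr-1 and 74.4, 88.2 and 78.6 CPM in slr-1 at 16 h, with a log2 difference of -7.64 ± 0.32 (adjusted p = 2.52e-16). No CASP1::shy2-2/slr-1 library of HIPP22 passed 1.89 CPM at any time, and no slr-1 library was below 17.4 CPM.

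In 5 other members there was no read in any CASP1::shy2-2/slr-1 library at 16 h. Against a floor of 3 reads over the group, the kinase-related AT1G63600 was at least 157-fold lower, the purine permease PUP6 at least 152-fold and the gibberellin-inactivating oxidase ATGA2OX3 at least 123-fold. AT5G63240, with a carbohydrate-binding domain, was at least 80.1-fold lower and the uncharacterized AT1G19500 at least 55.8-fold lower. PUP6, ATGA2OX3, AT5G63240 and AT1G19500 were chosen for mention after these values were seen.

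AOX1B, an alternative oxidase of the mitochondrial electron transport chain, had 1 read at 16 h in CASP1::shy2-2/slr-1. Its slr-1 libraries held 10.9, 11.7 and 14.0 CPM at that time, against 1.1, 0.845 and 0.484 CPM at 2 h. The genotypes did not overlap at either time, and AOX1B rose in slr-1 between 2 and 16 h by 3.78 ± 0.28 on the log2 scale (adjusted p = 4.39e-09).

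Of the 7 members with a transcription factor keyword in their annotation, 6 were lower in CASP1::shy2-2/slr-1 at 16 h, against 75 of all 100 members and 8.58% of the 431 genes tested that have this keyword. MYB60, an R2R3-MYB known from guard cells, had 0.202, 0.181 and 0.319 CPM in CASP1::shy2-2/slr-1 and 18.7, 20.1 and 14.5 CPM in slr-1 at 16 h, with no overlap. At 2 h it had 0.49, 0.522 and 0.64 CPM in CASP1::shy2-2/slr-1 and 2.94, 3.03 and 2.03 CPM in slr-1. Between these times MYB60 fell by 1.34 ± 0.33 in CASP1::shy2-2/slr-1 (adjusted p = 0.00137) and rose by 2.60 ± 0.19 in slr-1 (adjusted p = 7.98e-11), and these changes differed by -3.94 ± 0.38 (adjusted p = 1.02e-07, edgeR). The genotype difference was -2.30 at 2 h, -3.50 at 4 h, -4.32 at 8 h and -6.24 ± 0.26 at 16 h.

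WOX7, a homeobox factor of the WUSCHEL family linked to lateral root development, was read in no control library of either genotype. In slr-1 it had 1.15, 1.26 and 0.627 CPM at 16 h and 4.32, 4.61 and 4.43 CPM at 24 h, against 0.0505, 0.0 and 0.029 CPM in CASP1::shy2-2/slr-1 at 16 h. The 16 h libraries of the genotypes did not overlap (adjusted p = 3.13e-06, edgeR). With 3 reads over the CASP1::shy2-2/slr-1 libraries and 121 over the slr-1 libraries, the ratio of slr-1 to CASP1::shy2-2/slr-1 was 39.7 (exact 95% interval 13.3 to 195, for counting error only).

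HB26, a zinc-finger homeodomain protein, had 0.0252, 0.0 and 0.0 CPM in CASP1::shy2-2/slr-1 and 5.65, 6.8 and 5.19 CPM in slr-1 at 16 h (adjusted p = 1.96e-11). The VQ-motif gene AT5G08480, also under this keyword, had a log2 difference of -3.35 ± 0.21 (adjusted p = 1.65e-12) and moved in opposite directions between 2 and 16 h. MYB305 did not pass at 16 h (log2 difference -0.67 ± 0.32, adjusted p = 0.215).

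LBD41 belongs to the LOB-domain family and is known as a gene induced by low oxygen; it was singled out after its values were seen. It had 12.4, 9.65 and 10.8 CPM in CASP1::shy2-2/slr-1 and 31.2, 33.3 and 29.8 CPM in slr-1 at 16 h, with no overlap (log2 difference -1.51 ± 0.21, adjusted p = 1.13e-05). At 2 h the difference was 0.05 ± 0.22 (adjusted p = 0.895). LBD41 rose in slr-1 between 2 and 16 h by 1.16 ± 0.21 (adjusted p = 6.77e-05) and in CASP1::shy2-2/slr-1 the change was -0.40 ± 0.22 (adjusted p = 0.121).

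Genes of protein breakdown and nutrient export reached some of the highest levels. SAG29, also called SWEET15, exports sucrose from cells and is known as a marker of senescence. It had 2.02, 0.725 and 0.696 CPM in CASP1::shy2-2/slr-1 and 146, 148 and 77.0 CPM in slr-1 at 16 h. At 2 h the values were 0.894, 2.35 and 0.249 CPM in CASP1::shy2-2/slr-1 and 12.6, 12.7 and 10.9 CPM in slr-1. The groups did not overlap at either time, and the genotype difference was -3.38 ± 0.47 at 2 h (adjusted p = 8.03e-06) and -6.73 ± 0.48 at 16 h (adjusted p = 3.48e-11).

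CEP2, a cysteine endopeptidase of a family known from developmental cell death, had 13.6, 4.49 and 5.95 CPM in CASP1::shy2-2/slr-1 and 309, 328 and 359 CPM in slr-1 at 16 h. Its controls overlapped, at 4.35 to 20.3 CPM in CASP1::shy2-2/slr-1 and 16.8 to 20.1 CPM in slr-1. CEP2 rose in slr-1 between 2 and 16 h by 3.00 ± 0.48 (adjusted p = 1.34e-05), and the change in CASP1::shy2-2/slr-1 differed from it by -3.27 ± 0.67 (adjusted p = 0.00275, edgeR).

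AT2G36670, annotated as an aspartyl protease, had the least spread among these genes. CASP1::shy2-2/slr-1 libraries held 16.6 to 25.2 CPM over all 6 groups, with 21.9, 22.0 and 25.2 CPM at 16 h. The slr-1 libraries held 35.1, 34.7 and 32.3 CPM at 2 h and 148 ± 11.3 CPM (SD, n = 3) at 16 h, the lowest of them 138 CPM. Its rise in slr-1 was 2.00 ± 0.10 (adjusted p = 4.73e-14), and the interaction was -1.89 ± 0.14 (adjusted p = 1.38e-09).

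Of the wider lists for these processes most genes did not pass, with 5.08% of all genes tested lower and 3.58% higher for comparison. Of 17 senescence genes tested, 3 were lower and none higher at 16 h in CASP1::shy2-2/slr-1 (median log2 difference -0.04), and SAG29 is the one member among them. Of 27 sugar, nitrate and amino acid transport genes tested, 3 were lower and 1 higher (median -0.09). Of 10 developmental cell death genes, none of them a member, 3 were lower and none higher (median -0.15). Of 16 abscisic acid genes tested 4 were lower and none higher (median -0.55), namely HAI1, HAI2, NCED3 and RD29A, and HAI1 is the one member. The other 16 lists, among them auxin response, lateral root initiation and cell cycle, hold no member.

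HAI1, a phosphatase that restrains abscisic acid signalling, had 2.17, 1.86 and 1.94 CPM in CASP1::shy2-2/slr-1 and 8.27, 14.3 and 12 CPM in slr-1 at 16 h (log2 difference -2.52 ± 0.60, adjusted p = 0.00625). The groups did not overlap at 16 h. At 2, 4 and 8 h the difference did not pass, with adjusted p-values of 0.295, 0.51 and 0.0817. HAI1 fell in CASP1::shy2-2/slr-1 between 2 and 16 h (-2.87 ± 0.60, adjusted p = 0.000278), while in slr-1 the change was -1.18 ± 0.53 (adjusted p = 0.0644). In slr-1 HAI1 had 23.8, 28.6 and 18.8 CPM at 2 h, 32.9, 29.8 and 8.72 CPM at 4 h and 15.6, 17.2 and 3.08 CPM at 8 h. Its 24 h level there, 20.6 to 36.8 CPM, was above all 8 and 16 h libraries of that genotype and overlapped those at 2 and 4 h.

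**Figure D4:**
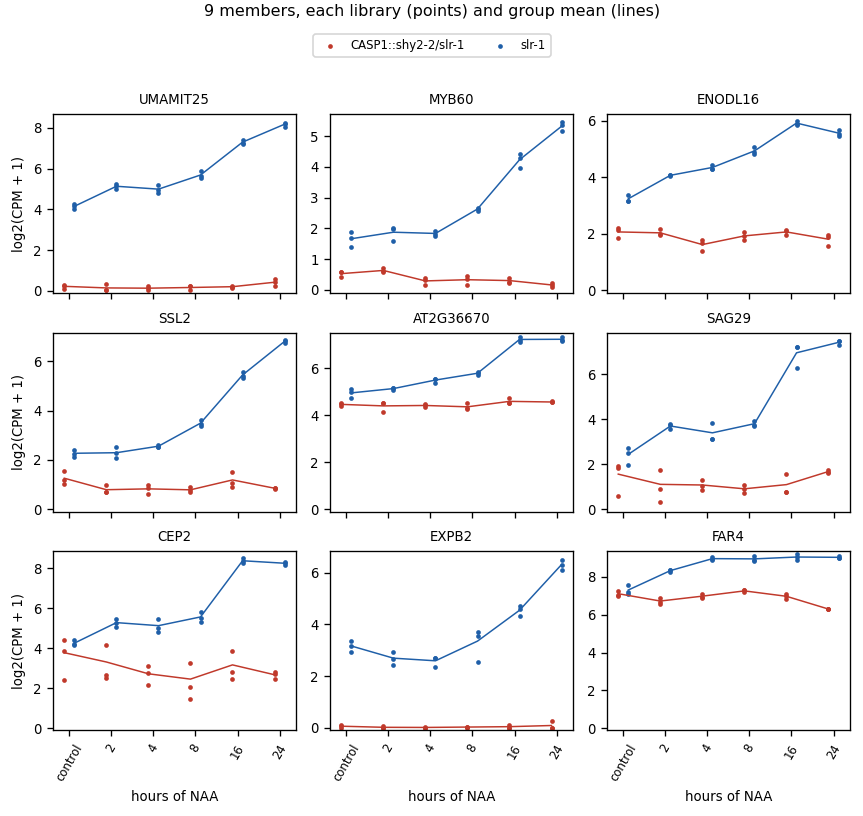
Each panel is a member; the y axis gives log2(CPM + 1) and the x axis the hours of NAA at even spacing, with points for single libraries and lines through group means, CASP1::shy2-2/slr-1 in red and slr-1 in blue. For AT2G36670, SAG29 and CEP2 the main step in slr-1 lies between 8 and 16 h, while FAR4 is near its highest slr-1 level by 4 h and the red lines of UMAMIT25 and EXPB2 stay near 0.

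Lipid and surface genes showed the early course as well as the late one. FAR4, a fatty acyl reductase that makes fatty alcohols of suberin, had 111, 126 and 135 CPM in CASP1::shy2-2/slr-1 and 477, 515 and 580.0 CPM in slr-1 at 16 h (log2 difference -2.07 ± 0.11, adjusted p = 4.72e-14). The slr-1 libraries were already at 329, 320.0 and 307 CPM at 2 h, against 102, 117 and 93.4 CPM in CASP1::shy2-2/slr-1, with no overlap. The interaction between 2 and 16 h did not pass (-0.44 ± 0.15, adjusted p = 0.0935).

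FAR1, the second reductase of this family among the members, differed in its timing. It had 60.7, 80.6 and 72.0 CPM in CASP1::shy2-2/slr-1 and 123, 111 and 101 CPM in slr-1 at 2 h, and 44.5, 43.6 and 39.0 CPM in CASP1::shy2-2/slr-1 and 206, 241 and 256 CPM in slr-1 at 16 h. Between these times FAR1 fell by 0.85 in CASP1::shy2-2/slr-1 (SE 0.18, adjusted p = 0.000313) and rose by 0.95 in slr-1 (SE 0.18, adjusted p = 9.88e-05), with an interaction of -1.79 ± 0.25 (adjusted p = 3.43e-05). Other suberin genes, which are not members, were higher in CASP1::shy2-2/slr-1 at 16 h. The log2 differences were 0.59 ± 0.18 for GPAT5, 0.81 ± 0.25 for CYP86A1 and 4.09 ± 0.21 for MYB53 (adjusted p 0.0424, 0.0448 and 2.81e-14, edgeR).

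AT3G58550, annotated as a lipid-transfer type protein, was the most abundant member in slr-1 at 24 h (1260.0 to 1460.0 CPM). Its 16 h libraries had 268, 211 and 166 CPM in CASP1::shy2-2/slr-1 and 529, 664 and 594 CPM in slr-1, which did not overlap (log2 difference -1.46 ± 0.20, adjusted p = 4.37e-06). It overlaps another annotated gene on the opposite strand, and whether counting used strand is not given. CER1, an enzyme of alkane synthesis for cuticular wax, had a log2 difference of -2.42 ± 0.39 at 16 h (adjusted p = 8.12e-05), with at most 4.42 CPM in any library then.

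All 7 members with a wall keyword were lower in CASP1::shy2-2/slr-1 at 16 h, EXPB2 and AT5G63240 included, against 75 of all 100 members and 9.88% of all genes tested with this keyword. BGAL14, a beta-galactosidase, had 0.0505, 0.0227 and 0.0 CPM in CASP1::shy2-2/slr-1 and 14.5, 14.6 and 12.1 CPM in slr-1 at 16 h, against slr-1 values of 0.853, 0.758 and 0.333 CPM at 2 h. Its rise in slr-1 was 4.27 ± 0.37 (adjusted p = 9.18e-10). AT1G10770, annotated as a pectin methylesterase inhibitor, had a log2 difference of -6.57 ± 0.35 (adjusted p = 4.85e-14), and AT1G23200 of the same annotated superfamily one of -3.96 ± 0.36 (adjusted p = 4.06e-09). BGAL14 also overlaps a gene on the opposite strand.

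SSL2, a strictosidine synthase-like protein, and ENODL16, an early nodulin-like protein, belong to other families and showed similarly narrow replicates. SSL2 had 1.87, 1.09 and 0.87 CPM in CASP1::shy2-2/slr-1 and 41.4, 46.9 and 39.6 CPM in slr-1 at 16 h (log2 difference -5.04 ± 0.21, adjusted p = 1.51e-16). ENODL16 had 3.28, 2.88 and 3.36 CPM in CASP1::shy2-2/slr-1 and 57.2, 57.7 and 62.9 CPM in slr-1 (log2 difference -4.21 ± 0.14, adjusted p = 2.87e-18). Neither overlapped between genotypes, and their interactions between 2 and 16 h were -2.61 ± 0.33 for SSL2 (adjusted p = 6.06e-06) and -1.85 ± 0.19 for ENODL16 (adjusted p = 2.97e-07). ENODL16 was at 42.8 to 50 CPM in slr-1 at 24 h, below its 16 h libraries.

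Among 19 members annotated as transporters or channels, 14 were lower at 16 h, a share like the 75 of all 100 members; among the 646 genes tested with this keyword it was 8.82%. BOR4, a borate exporter, had 21.2, 19.6 and 13.6 CPM in CASP1::shy2-2/slr-1 and 61.4, 62.2 and 41.2 CPM in slr-1 at 16 h (log2 difference -1.58 ± 0.18, adjusted p = 2.31e-07). At 2, 4 and 8 h BOR4 did not differ past the threshold (adjusted p 0.076, 0.435 and 0.308), and it was chosen for mention after these values were seen. The DUF3537 protein AT3G20300 was lower at every one of 2, 4, 8 and 16 h, with a log2 difference of -2.13 ± 0.15 at 16 h (adjusted p = 3.27e-11). The 5 members with a receptor or kinase keyword were all lower at 16 h, against 75 of all 100 members. Among the 1151 genes tested with this keyword it was 4.95%. The 5 include LLG3 (-3.59 ± 0.45, adjusted p = 1.72e-06, edgeR) and AT1G33770 (-6.68 ± 0.43, adjusted p = 3.35e-12).

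A further class of 12 members started from a control level at least 1 higher in L in CASP1::shy2-2/slr-1 compared with slr-1, so that their slr-1 increase began from a lower base. Of these, 2 were lower in CASP1::shy2-2/slr-1 at 16 h (AT3G10040 and AT3G45680), against 2.63% of the 266 genes tested with such a control difference. At 2 h 6 of the 12 were higher (54.5% of those 266 genes) and none was lower (3.01%). Of 79 members with controls within 1 of each other, 64 were lower at 16 h (4.87% of such genes tested). All 9 members with a CASP1::shy2-2/slr-1 control at least 1 lower were lower at 16 h and at 2 h, against 20.3% and 33.6% of the 330 such genes tested. The classes are set by control levels that the rule used, so these counts describe them and the classes are not compared with each other. At 24 h the difference among the 12 ranged from -2.18 to 0.42, with a median of -1.14, and lay within 1 either way in 3 of them.

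AT1G49570, annotated as a peroxidase, had the largest genotype difference at 2 h among these 12. At 2 h it had 47.6, 45.5 and 29 CPM in CASP1::shy2-2/slr-1 and 1.84, 3.5 and 1.87 CPM in slr-1 (log2 difference 4.06 ± 0.60, adjusted p = 1.8e-05). The 16 h values were 13.0, 5.21 and 9.34 CPM in CASP1::shy2-2/slr-1 and 11, 11.2 and 12.5 CPM in slr-1, which overlapped (adjusted p = 0.766). It fell by 2.25 ± 0.53 in CASP1::shy2-2/slr-1 (adjusted p = 0.000936) and rose in slr-1 by 2.14 ± 0.58 (adjusted p = 0.00341) between these times. At 24 h the level was 1.55 to 2.2 CPM in CASP1::shy2-2/slr-1 and 9.37 to 13.4 CPM in slr-1.

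There were 3 members that were higher in CASP1::shy2-2/slr-1 at 2 h and lower at 16 h, namely AT3G10040, AT3G45680 and AT1G30760 (0.124% of all genes tested). AT3G10040, annotated as a DNA-binding transcription factor, had 6.66, 5.77 and 7.26 CPM in CASP1::shy2-2/slr-1 and 2.12, 2.16 and 2.0 CPM in slr-1 at 2 h. By 16 h it had 8.4, 8.05 and 4.21 CPM in CASP1::shy2-2/slr-1 and 15.3, 16.8 and 8.58 CPM in slr-1, again with no overlap. The difference was 1.63 ± 0.25 at 2 h (adjusted p = 2.11e-05) and -0.96 ± 0.22 at 16 h (adjusted p = 0.00415).

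AT3G45680, annotated as a major facilitator superfamily protein, had 150.0, 210.0 and 143 CPM in CASP1::shy2-2/slr-1 and 66.1, 70.7 and 77.0 CPM in slr-1 at 2 h. The 16 h libraries held 50.9, 46.1 and 52.0 CPM in CASP1::shy2-2/slr-1 and 91.6, 93.7 and 99.8 CPM in slr-1. Its log2 change between these times was -1.85 ± 0.16 in CASP1::shy2-2/slr-1 (adjusted p = 1.1e-09) and 0.29 ± 0.16 in slr-1 (adjusted p = 0.125), and the interaction was -2.14 ± 0.22 (adjusted p = 3.48e-07). AT1G30760, a berberine-bridge type enzyme, had 77.0, 153 and 59.6 CPM in CASP1::shy2-2/slr-1 and 51.1, 46.3 and 34.9 CPM in slr-1 at 2 h. At 16 h it had 14.6, 10.1 and 4.44 CPM in CASP1::shy2-2/slr-1 and 103, 105 and 91.4 CPM in slr-1, with an interaction of -4.47 ± 0.47 (adjusted p = 4.33e-07).

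**Figure D5:**
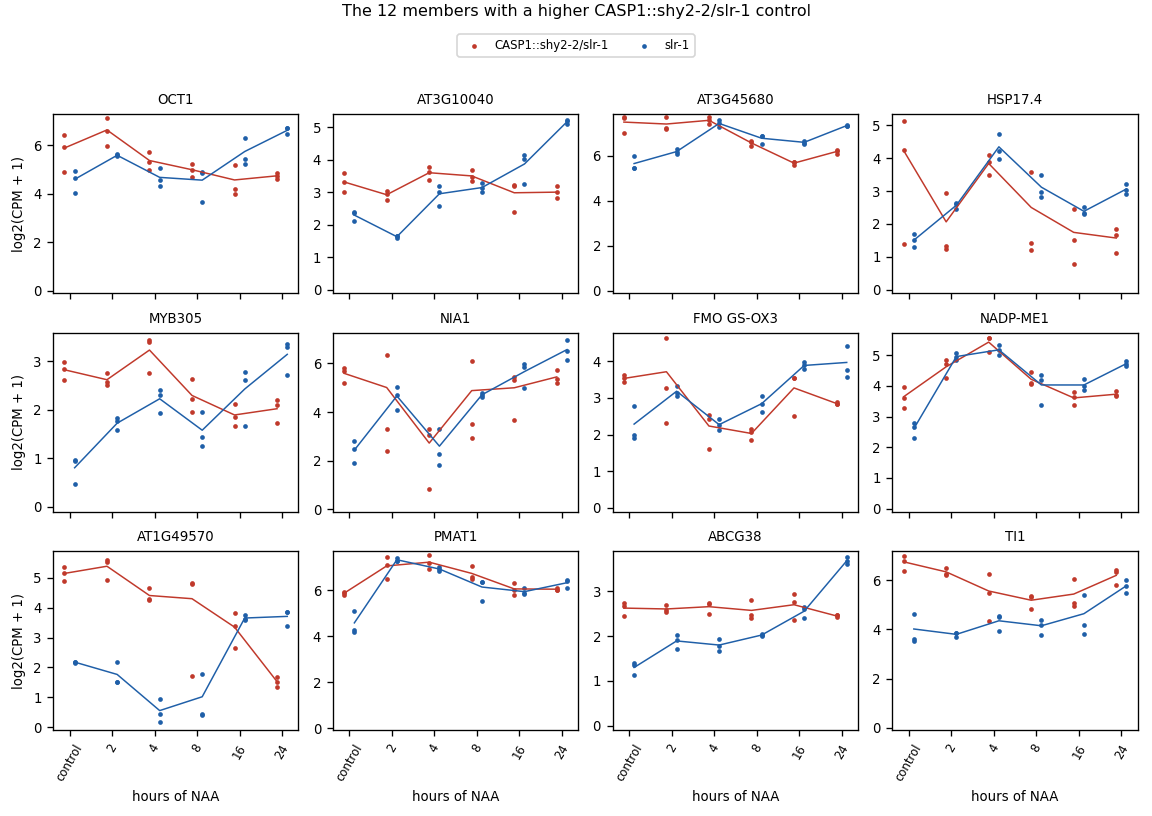
The 12 members whose control level was at least 1 higher in CASP1::shy2-2/slr-1; the y axis gives log2(CPM + 1), the x axis hours of NAA at even spacing, points are libraries and lines join group means, CASP1::shy2-2/slr-1 in red and slr-1 in blue. The red mean lies above the blue mean in the controls of every panel, with overlapping libraries for OCT1 and HSP17.4. By 24 h the red mean lies below the blue mean in every panel except that of TI1.

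NIA1, a nitrate reductase, is among the 8 members with the largest slr-1 difference at 24 h, and it varied widely between replicates. It had 8.94, 80.3 and 4.34 CPM in CASP1::shy2-2/slr-1 and 31.8, 25 and 16.0 CPM in slr-1 at 2 h, which overlapped. At 16 h the values were 42.3, 38.7 and 11.9 CPM in CASP1::shy2-2/slr-1 and 56.0, 62.8 and 30.5 CPM in slr-1 (adjusted p = 0.66). NIA1 controls were 35.2 to 55.3 CPM in CASP1::shy2-2/slr-1 and 2.76 to 5.92 CPM in slr-1, and the 24 h levels were 35.8 to 51.7 CPM in CASP1::shy2-2/slr-1 and 68.6 to 123 CPM in slr-1.

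In a few members the early change was shared by the genotypes. PMAT1, a malonyltransferase acting on phenolic glucosides, had 135, 175 and 87.8 CPM in CASP1::shy2-2/slr-1 and 156, 170.0 and 154 CPM in slr-1 at 2 h, against control levels of 55.1 to 59.3 CPM in CASP1::shy2-2/slr-1 and 17.2 to 33.5 CPM in slr-1. Between 2 and 16 h it fell in both, with log2 changes of -1.11 ± 0.23 in CASP1::shy2-2/slr-1 (adjusted p = 0.000262) and -1.54 ± 0.23 in slr-1 (adjusted p = 7.09e-06). NADP-ME1, a cytosolic malic enzyme, likewise fell between 2 and 16 h, with log2 changes of -1.17 ± 0.22 in CASP1::shy2-2/slr-1 and -1.10 ± 0.21 in slr-1 (adjusted p 6.92e-05 and 0.000147), and its genotype difference at 16 h did not pass (-0.44 ± 0.22, adjusted p = 0.23). For these genes the late difference rests on the control and 24 h groups that the rule used.

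ABCA8, an ABC transporter, was higher in CASP1::shy2-2/slr-1 at 2 h by 0.88 ± 0.11 (adjusted p = 2.28e-06), and at 16 h the difference was -0.04 ± 0.11 (adjusted p = 0.88), with libraries of 75.8, 77.0 and 68.8 CPM in CASP1::shy2-2/slr-1 and 71.2, 82.4 and 75.9 CPM in slr-1. At 24 h it had 69.2 to 69.7 CPM in CASP1::shy2-2/slr-1 and 157 CPM or more in slr-1. TI1, a trypsin inhibitor, was higher in CASP1::shy2-2/slr-1 at 2 h (2.61 ± 0.42, adjusted p = 5.92e-05), and at 24 h the genotypes overlapped at 54.5 to 83.6 CPM in CASP1::shy2-2/slr-1 and 43.5 to 63.7 CPM in slr-1.

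Some marker lists of cell types differed between the genotypes too, and their part in the members' levels was not tested. Summed over 13 endodermis markers, none of them a member, the level at 24 h was 334 to 369 CPM in CASP1::shy2-2/slr-1 and 51.2 to 59.2 CPM in slr-1, with CASP5 at 0 in both. The sum at 16 h was 584 to 660.0 CPM in CASP1::shy2-2/slr-1 and 313 to 449 CPM in slr-1, and 6 of the 13 were higher in CASP1::shy2-2/slr-1. For 9 xylem markers the sum at 16 h was 230.0 to 287 CPM in CASP1::shy2-2/slr-1 and 318 to 387 CPM in slr-1, with 5 of the 9 lower in CASP1::shy2-2/slr-1, and at 24 h it was 108 to 140.0 CPM in CASP1::shy2-2/slr-1 and 189 to 231 CPM in slr-1. The 10 photosynthesis and shoot markers summed to 105 to 227 CPM in CASP1::shy2-2/slr-1 and 154 to 307 CPM in slr-1 at 16 h, which overlapped, and none of them passed. At 24 h that sum was 169 to 192 CPM in CASP1::shy2-2/slr-1 and 266 to 313 CPM in slr-1, with no overlap. Of the other lists at 24 h, pericycle and stele markers overlapped (959 to 989 CPM in CASP1::shy2-2/slr-1, 955 to 1040 CPM in slr-1). Sums for phloem (360 to 374 against 301 to 331 CPM) and root hair (4.76 to 5.24 against 3.67 to 4.39) were higher in CASP1::shy2-2/slr-1. Cortex (0.141 to 0.768 against 1.06 to 2.45 CPM) and root cap and tip (0.259 to 3.13 against 4.09 to 5.36) sums were lower there.

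By position, members lay on all 5 chromosomes (27, 18, 23, 14 and 18 on chromosomes 1 to 5). There were 3 neighbouring pairs, DOR with AT2G31480, AT2G30300 with AT2G30310, and AT1G47400 with AT1G47405. The annotated genes of DOR and AT2G31480 are 242 bases apart on one strand, and both were lower in CASP1::shy2-2/slr-1 at 16 h (-7.31 ± 0.43, adjusted p = 4.73e-13, and -5.52 ± 0.36, adjusted p = 3.7e-12). Another annotated gene overlaps 19 members, 18 of them on the opposite strand, and reads of such pairs may be shared.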

How the data were processed

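Per the labels' protocols, stranded mRNA libraries of dissected root sections were read as single reads. The authors deposited 1 count of reads per locus and library. Tools listed in the submitters' processing notes are HTSeq 0.6.1, STAR 2.4.0a and cutadapt 1.3, on the TAIR10 build; settings and the use of strand are not given in the sources used here. Summary categories, 5.28 to 11.2% of reads, were left out. Genes that share sequence or overlap are uncertain in such counts.

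CPM are counts per 1000000 reads in loci. Tests used edgeR 4.0.16 in R 4.3.3: TMM factors (0.939 to 1.066), filterByExpr over the 12 groups (20939 genes tested, 11739 loci left out), 1 mean per group over all 36 libraries, and the robust quasi-likelihood F-test with 24 residual degrees of freedom. Adjusted p-values are Benjamini-Hochberg over all genes tested in each comparison and called under 0.05, and log2 differences carry their standard error. Only 2 to 16 h libraries were tested, since the rule used the controls and 24 h. The script was tested on simulated data with known changes.

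The members, the 20 gene lists and the comparisons were chosen with earlier results of these data known. Named genes are, among the members, the 12 with the smallest p at 16 h, the 5 in the interaction, the 8 most abundant in slr-1 at 24 h, the 8 with the largest slr-1 difference, the 5 with the largest slr-1 difference at 2 h, the 5 with the largest genotype difference of response, members of the lists, up to 4 per annotation keyword, and those at the edges of the rule; others, such as LBD41, BOR4, CER1, TI1, MYB305, AT3G10040 and the neighbouring pairs, were chosen after their values were seen. Gene names, positions and the 250 upstream bases are from RefSeq's TAIR10.1, which holds 31900 of the loci and all 100 members; a prepared promoter table was not used here.

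The labels give replicate numbers without saying what they share. Same-numbered libraries of the genotypes deviated together above 0.1 in all 3 pairs at 16 h (0.518, 0.227 and 0.656), and in none of the other 5 comparisons did all pairs, so a replicate block was an alternative. Replicates differed beyond counting noise (lowest chi-square per degree of freedom 3.98). Library codes end in n (13), x (1) or nothing (22), with a meaning that is not given in the sources used here. Other alternatives were size factors of another kind, DESeq2 1.42.0, other filters, pseudocounts and thresholds, and each library left out.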

Additional observations from a re-analysis of the deposited data

Results flagged for a closer look

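Between 2 and 16 h of NAA, 5 members changed differently in CASP1::shy2-2/slr-1 and in slr-1 with the smallest p-values in the test of that difference. Given as the change in CASP1::shy2-2/slr-1 minus the change in slr-1 (log2), the values were -3.94 for MYB60, -2.42 for AT1G19200, -1.89 for AT2G36670, -1.85 for ENODL16 and -2.14 for AT3G45680. AT1G19200, annotated as a DUF581 protein, fell in CASP1::shy2-2/slr-1 by 2.00 (SE 0.16, adjusted p = 1.67e-10, edgeR) and rose in slr-1 by 0.42 (SE 0.14, adjusted p = 0.0116). It had 4.93, 5.57 and 3.88 CPM in CASP1::shy2-2/slr-1 and 8.8, 8.86 and 8.35 CPM in slr-1 at 2 h. At 16 h it had 1.09, 1.31 and 1.45 CPM in CASP1::shy2-2/slr-1 and 12.1, 14.4 and 11.5 CPM in slr-1, with no overlap.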

How the results depend on the processing

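The number of members depends on the rule's own settings. A pseudocount of 5 kept 47 loci (43 of them among the 100), a slr-1 minimum of 1 kept 242, a minimum of 2 kept 60, and a CASP1::shy2-2/slr-1 maximum of 0 kept 58. With 1 library left out it was 96 to 118.

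With a mean CPM of at least 5, 47 members could be tested. Lower in CASP1::shy2-2/slr-1 were then 16 at 2 h, 20 at 4 h, 23 at 8 h and 31 at 16 h, with 2 higher at 8 h. Between 2 and 16 h 30 rose in slr-1, while 17 fell and 4 rose in CASP1::shy2-2/slr-1, and the interaction was lower in 26. At an adjusted p under 0.01, 6 were higher at 2 h and 3 at 4 h, 2 fell in slr-1 and 6 rose in CASP1::shy2-2/slr-1. With a log2 difference of at least 1, 2 were higher at 8 h, 3 fell in slr-1 and 7 rose in CASP1::shy2-2/slr-1. Fitting the compared libraries alone, 5 rose in CASP1::shy2-2/slr-1. With code suffix n as a term and the suffix x library left out, both at once, 1 was higher at 16 h and 1 in the interaction. Under total count scaling, chosen after seeing the data, 2 fell in slr-1.

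With 1 library left out, 72 to 78 members were lower and 0 to 2 higher at 16 h, 42 to 52 lower and 8 to 10 higher at 2 h, 46 to 51 and 4 to 5 at 4 h, and 60 to 64 and 3 to 5 at 8 h. Between 2 and 16 h 69 to 75 rose and 2 to 4 fell in slr-1, 21 to 26 fell and 7 to 11 rose in CASP1::shy2-2/slr-1, and the interaction was lower in 39 to 46 and higher in 0. The genotype difference of ABCA8 at 16 h ranged from -0.078 to 0.015 (0.007 without CASP1::shy2-2/slr-1 16 h replicate 3, 0.015 without slr-1 16 h replicate 2), and that of PMAT1 from -0.002 (without CASP1::shy2-2/slr-1 16 h replicate 2) to 0.247, none of them past the threshold. The cause of these changes was not tested.

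With the replicate block, 77 members were lower at 16 h and 0 higher, the 75 called without it among the 77, and the block moved no count of calls by over 1.5 times. Leaving out both 16 h libraries of suffix n, chosen after seeing the data, left 72 lower. Libraries without a suffix alone give no value at 2 h. Members near 0 in CASP1::shy2-2/slr-1 are limited by depth: 10 members had 1 to 3 reads there at 16 h.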
